A study of Mus musculus with 4 samples.

Results

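NK-marked spots were spots of 4 spatial transcriptome sections of mouse tumors that held at least 1 UMI of Ncr1 or Klrb1c and no UMI of Cd8a. They were thus chosen by the counts of these 3 genes, which serve below as a description only and enter no test. There were 681 of them among 11947 spots, or 5.70%. A spot is a small barcoded area of a Visium slide that captures the RNA of the several cells above it, and a UMI (unique molecular identifier) stands for 1 captured RNA molecule. Ncr1 encodes the receptor NKp46 and Klrb1c the receptor NK1.1, the usual markers of natural killer (NK) cells in mice carrying C57BL/6 alleles. The comparison class was the 9369 unmarked spots, in which Ncr1, Klrb1c and Cd8a were all at 0. A further 1776 spots held Cd8a and neither NK gene, and 121 held Cd8a together with an NK gene.

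Each section came from a different MC38 tumor, a mouse colon carcinoma line, implanted under the skin of female mice 8 to 12 weeks old. All hosts were F1 mice with a C57BL/6J parent. Their other parent was CC075/UncJ in 2 cases (CC075F1, a responder to anti-PD-1 in the study's terms) and CC080/TauUncJ in 2 cases (CC080F1, a non-responder), both inbred lines of the Collaborative Cross. Every mouse had received a single 200 µg injection of isotype control antibody once the tumor measured 75 to 110 mm3 and was killed 48 hours later, so all results concern tumors without checkpoint blockade. In what follows, values of the sections stand in the order CC075F1 replicate 1, CC075F1 replicate 2, CC080F1 replicate 1 and CC080F1 replicate 2, and p-values measure the spread between these sections alone.

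NK cells are innate lymphocytes that kill target cells by releasing perforin and granzymes from granules. They read the state of a target through activating receptors such as NKp46 and NKG2D and through inhibitory receptors that bind MHC class I, they depend on interleukin 15 (IL-15), and they recruit dendritic cells with chemokines such as XCL1. CD8 T cells use much of the same killing machinery and many of the same receptors, and NK1.1 is also carried by some T cells and other innate lymphoid cells.

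The marked spots rested on few molecules. Ncr1 had 37, 112, 33 and 294 UMIs over whole sections and Klrb1c had 72, 116, 35 and 212 UMIs. Of the marked spots, 591 (86.8%) held exactly 1 UMI of the pair, 90 held more, and the highest count was 4. Ncr1 alone marked 334 spots, Klrb1c alone 305, and both genes were found in 42 spots, all of them in the replicate 2 sections (0, 11, 0 and 31 spots). Among spots with Ncr1, 0%, 11.7%, 0% and 11.8% also held Klrb1c, against 2.62%, 3.15%, 1.20% and 5.70% of the spots without Ncr1. The pair thus shared spots more often than that in both replicate 2 sections and in no spot of the replicate 1 sections, which held 36 and 32 spots with Ncr1. These shares were taken over all spots without depth matching. Median depth was 28972, 55444, 36813 and 41847 UMIs in marked spots and 30116, 41443, 33455 and 33422 UMIs in all unmarked spots. The part of depth in the sharing was not tested. On GRCm38, Ncr1 lies on chromosome 7 (4337724 to 4345164, plus strand), and Klrb1c (128778485 to 128789215, minus strand) and Cd8a (71373427 to 71379173, plus strand) lie on chromosome 6 (GENCODE vM21). RNA can spread between spots on such slides, and no region known to lack NK cells was available to measure that background. Klrb1c has close paralogs in the same family, and how reads shared with them were counted was not tested.

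NK-marked spots numbered 67, 142, 61 and 411, so CC080F1 replicate 2 alone held more of them than the other 3 sections together. Their shares of all spots were 2.47% (95% exact binomial interval 1.92 to 3.13), 4.33% (3.66 to 5.09), 2.19% (1.68 to 2.80) and 12.9% (11.8 to 14.2). These intervals cover counting error only, which leaves CC080F1 replicate 2 apart from the rest and the sections CC075F1 replicate 1 and CC080F1 replicate 1 within each other's interval. By strain the mean share was 3.40% ± 1.32 (SD, n = 2) in CC075F1 and 7.57% ± 7.61 (SD, n = 2) in CC080F1. The ratio of 2.22 was not larger than the spread between sections (two-sided exact permutation p = 1, where 2 against 2 sections cannot go below 0.33), and without CC080F1 replicate 2 it fell below 1, to 0.643. With every spot thinned to 10000 UMIs the shares were 1.25%, 1.44%, 0.728% and 4.24%, with 161, 102, 53 and 205 shallower spots left out, and the order of the highest and lowest section was kept. The rule of no Cd8a left out 36.8%, 30.0%, 6.15% and 3.97% of the spots with an NK gene, so it lowered the CC075F1 shares more. With Cd8a spots included, Ncr1 was found in 1.33%, 3.14%, 1.15% and 8.25% of all spots. Klrb1c was then found in 2.58%, 3.42%, 1.18% and 6.21%.

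**Figure D1:**
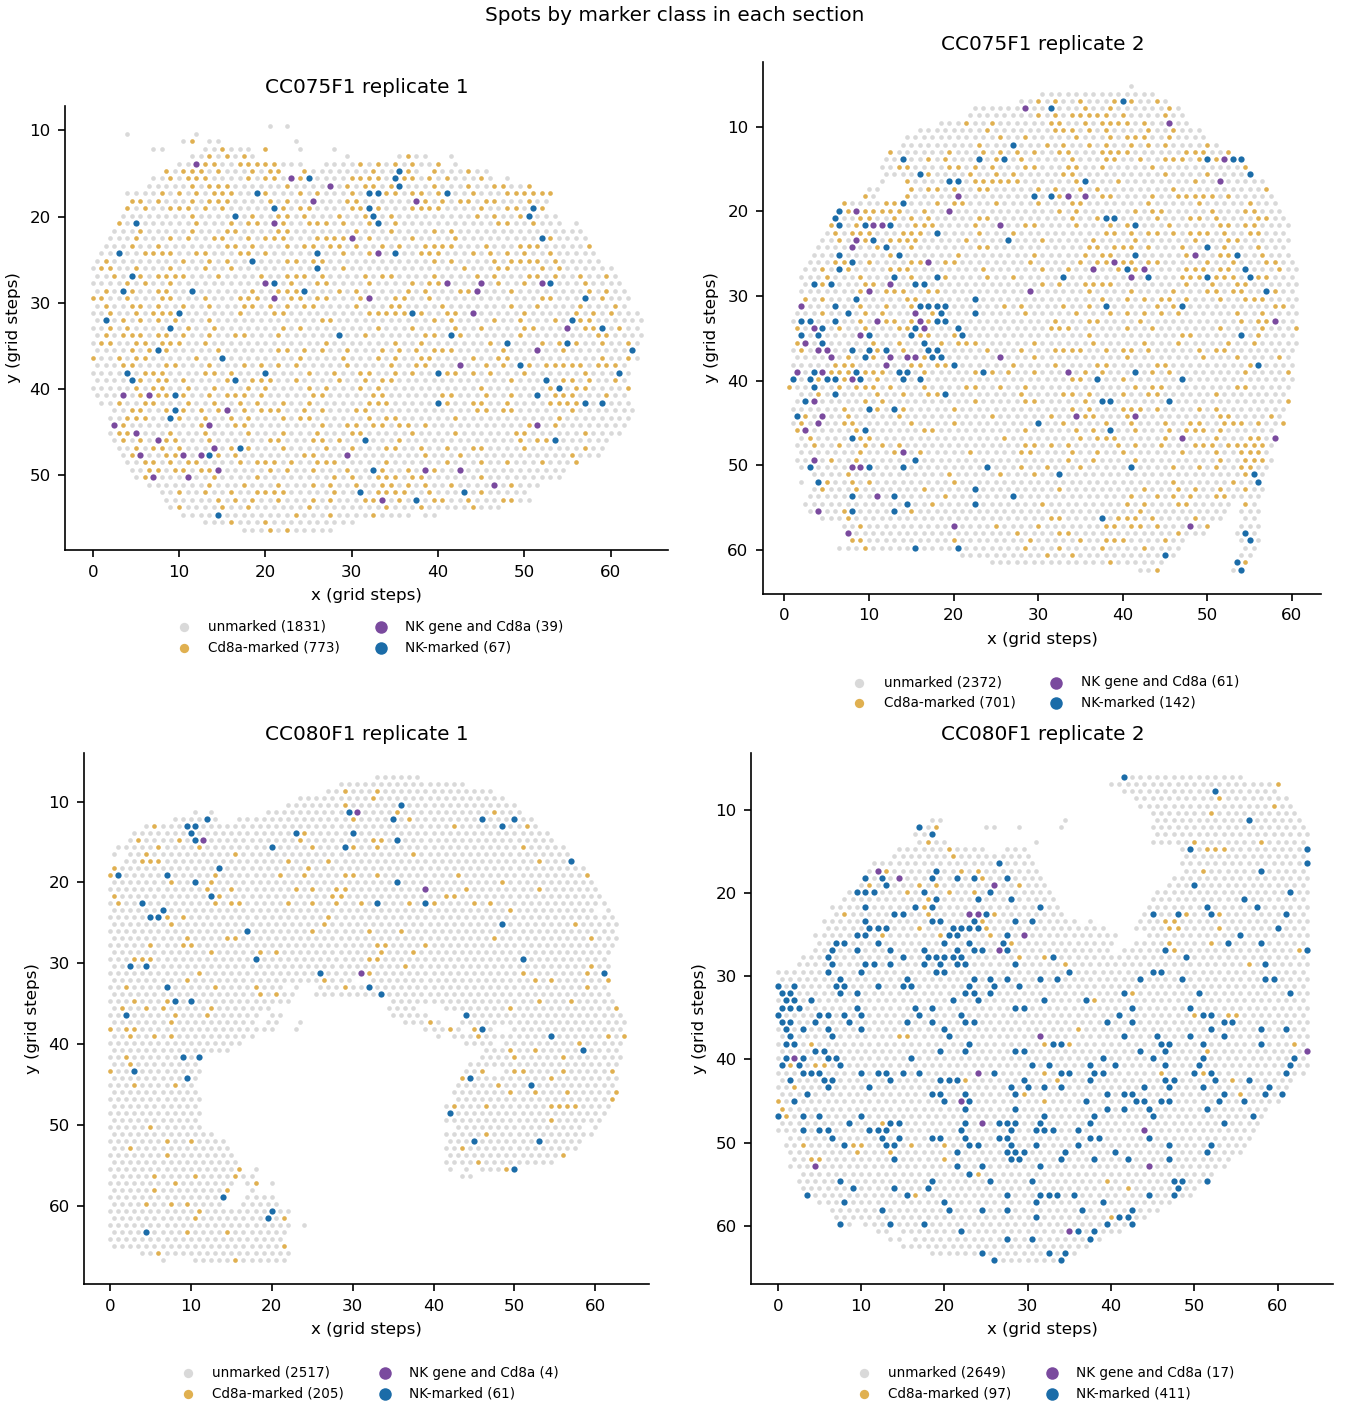
The 4 sections with every spot placed by its grid position (axes in grid steps), colored by class: NK-marked, Cd8a-marked, spots with both, and unmarked, with the number of spots of each class. The 411 NK-marked spots of CC080F1 replicate 2 are spread over the section, and the replicate 1 sections hold 67 and 61. Of these 20.9% and 14.8% touch another marked spot, against 15.1% and 11.1% of the depth-matched unmarked spots.

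Section totals ran from 82594649 to 146460975 UMIs and the median spot from 31139 to 41740 UMIs. Unmarked spots were drawn to the depth of the marked ones, section by section, in 10 strata of spot depth, with 14, 7, 24 and 2 unmarked spots per marked spot. After this the median depth of marked and unmarked spots was 28972 and 29280, 55444 and 55723, 36813 and 36333, and 41847 and 42183 UMIs. Spots with markers of skeletal muscle, skin or fat above 0.5% of their UMIs numbered 72 in CC075F1 replicate 2 and 5 in CC080F1 replicate 2. In CC075F1 replicate 2 they made up 10 of the 142 marked spots, so results for muscle and matrix genes are given with and without that section. Mitochondrial genes took a median of 1.89%, 2.00%, 2.23% and 1.86% of UMIs in marked spots and 1.74%, 1.57%, 2.00% and 1.84% in matched unmarked spots.

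Marked spots held Ptprc more often and more T cell RNA than their matched controls. Ptprc, the pan-leukocyte gene CD45, was found in 74.6%, 76.8%, 75.4% and 74.7% of marked spots and in 66.6%, 68.1%, 63.0% and 68.1% of unmarked spots. At least 1 Cd3 gene was found in 58.2%, 62.0%, 22.95% and 25.8% of marked spots against 47.2%, 50%, 22.8% and 19.3% of unmarked spots. Summed over 16 T cell genes, marked spots held 113, 112, 55.2 and 75.9 CPM (counts of UMIs scaled to the total of the class) and unmarked spots 101, 62.1, 46.2 and 49.6 CPM. A marked spot was therefore not free of T cells, although Cd8a was at 0 by rule. Monocyte and macrophage genes summed to 6670, 5819.7, 4052.5 and 4517.5 CPM in marked spots and 6611.8, 4454.5, 4072.5 and 4188.2 CPM in unmarked spots. They were thus close to level in both replicate 1 sections. More NK cells in a spot and more RNA in each NK cell cannot be told apart with these data.

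No difference in position between the classes was larger than the spread between sections. The mean distance to the nearest position off tissue was 8.22, 9.19, 4.89 and 9.39 grid steps for marked spots and 9.08, 11.5, 5.32 and 8.68 steps for unmarked spots. Marked spots lay closer to the edge in 3 sections and farther from it in CC080F1 replicate 2, and the mean difference of -0.73 steps ± 1.26 (SD, n = 4) was within the spread between sections (exact paired permutation p = 0.375, smallest possible 0.13). Within 3 steps of the edge lay 19.4%, 24.6%, 41.0% and 19.7% of the marked spots and 19.0%, 15.2%, 36.5% and 20.9% of the unmarked spots, a mean difference of 3.28 percentage points ± 4.76 (SD, n = 4; exact paired permutation p = 0.375). Without depth matching the sign of this last difference turned, to -0.98 points.

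Marked spots more often adjoined one another. Of the tissue spots touching a marked spot, 3.99%, 9.21%, 4% and 17.2% were marked themselves, against 2.77%, 4.15%, 2.09% and 15.2% of those touching an unmarked spot. The share was higher around marked spots in all 4 sections, as a description without a test. A marked neighbor was present for 20.9%, 38.03%, 14.8% and 60.3% of the marked spots. Cd8a was found in 32.2%, 25.5%, 10.6% and 4.36% of the spots touching a marked spot and in 31.5%, 21.2%, 7.47% and 3.59% of those touching an unmarked one.

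To ask what else the marked spots contained, UMIs were summed over each class in each section without the 3 defining genes, and the classes were compared within sections in edgeR (adjusted p under 0.05, Benjamini-Hochberg over all genes). Of 13375 genes tested, 139 (1.04%) were higher and 128 (0.957%) lower in NK-marked spots, and all genes together had a median of -0.01 (log2 fold change). The log2 fold change was positive in 6011 of the 13375 genes, the background for the counts of positive list members below. Among the genes that rose were granzymes, other genes of cytotoxic lymphocytes and genes of the extracellular matrix, and among those that fell were genes of the hypoxia response. The counts moved with single sections: without CC075F1 replicate 2 they were 92 higher and 191 lower, and without CC080F1 replicate 2 they were 228 higher and 105 lower. Scaling by library size alone gave 255 higher and 94 lower. Without the section as a block no gene passed, with 198 at an unadjusted p under 0.05, so the calls rest on comparing each section with itself.

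Genes of the killing machinery rose in the marked spots. Of 14 effector genes tested, 10 rose and none fell, all 14 had a positive log2 fold change, and their median was 0.94. Summed over the list, effector RNA stood at 208, 285, 76.5 and 409 CPM in marked spots and at 74.3, 128, 41.3 and 229.8 CPM in unmarked spots. Part of the sum in CC075F1 replicate 1 lay in a single marked spot, whose shares of Gzmd, Gzme and Gzmf are given below. Gzma, the granzyme A gene (chromosome 13), had 4.32, 23.9, 4.07 and 33.5 CPM in marked spots and 3.47, 7.40, 1.19 and 16.4 CPM in unmarked spots. Marked spots were higher in each section, least so in CC075F1 replicate 1, with a log2 fold change of 1.17 ± 0.12 (SE; edgeR adjusted p = 1.38e-05). Prf1, which encodes the pore-forming perforin, had 7.68, 10.1, 2.26 and 27.5 CPM against 4.57, 4.60, 1.88 and 14.3 CPM (0.87 ± 0.11, adjusted p = 0.000167). Perforin UMIs were found in 14.9%, 33.8%, 8.20% and 54.0% of marked spots and in 11.9%, 16.1%, 6.15% and 34.9% of unmarked spots.

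Gzmb, Ctsw, Nkg7 and Fasl also passed as higher in marked spots. Gzmb (chromosome 14) had 7.68, 14.3, 6.34 and 14.5 CPM in marked spots and 2.30, 7.47, 1.56 and 10.3 CPM in unmarked spots (log2 fold change 0.78 ± 0.16 SE, adjusted p = 0.01). Ctsw, the cysteine protease cathepsin W of NK and CD8 T cells, had 9.60, 6.61, 3.62 and 7.04 CPM against 5.26, 2.47, 2.11 and 3.15 CPM, higher in each section (1.07 ± 0.16, adjusted p = 0.000645). Nkg7, a granule membrane protein, was level in CC075F1 replicate 1 (17.3 and 17.2 CPM) and higher in the other sections, most so in CC080F1 replicate 2 (11.1 against 4.93 CPM), with a log2 fold change of 0.65 ± 0.13 (adjusted p = 0.00588). Without CC080F1 replicate 2 that call was lost. Fasl, the ligand of the death receptor Fas, rose from 1.34, 0.589, 0.576 and 0.652 CPM in unmarked spots to 3.84, 2.16, 1.81 and 1.11 CPM (1.32 ± 0.32, adjusted p = 0.0314), a call that was also lost on leaving out either replicate 1 section or CC075F1 replicate 2. The members that did not pass were Serpinb9, the granzyme B inhibitor (0.28 ± 0.07, adjusted p = 0.0511), Cst7 (0.58, adjusted p = 0.128), Tnfsf10, which encodes TRAIL (0.53, adjusted p = 0.416), and Gzmk (0.43, adjusted p = 0.884).

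**Figure D2:**
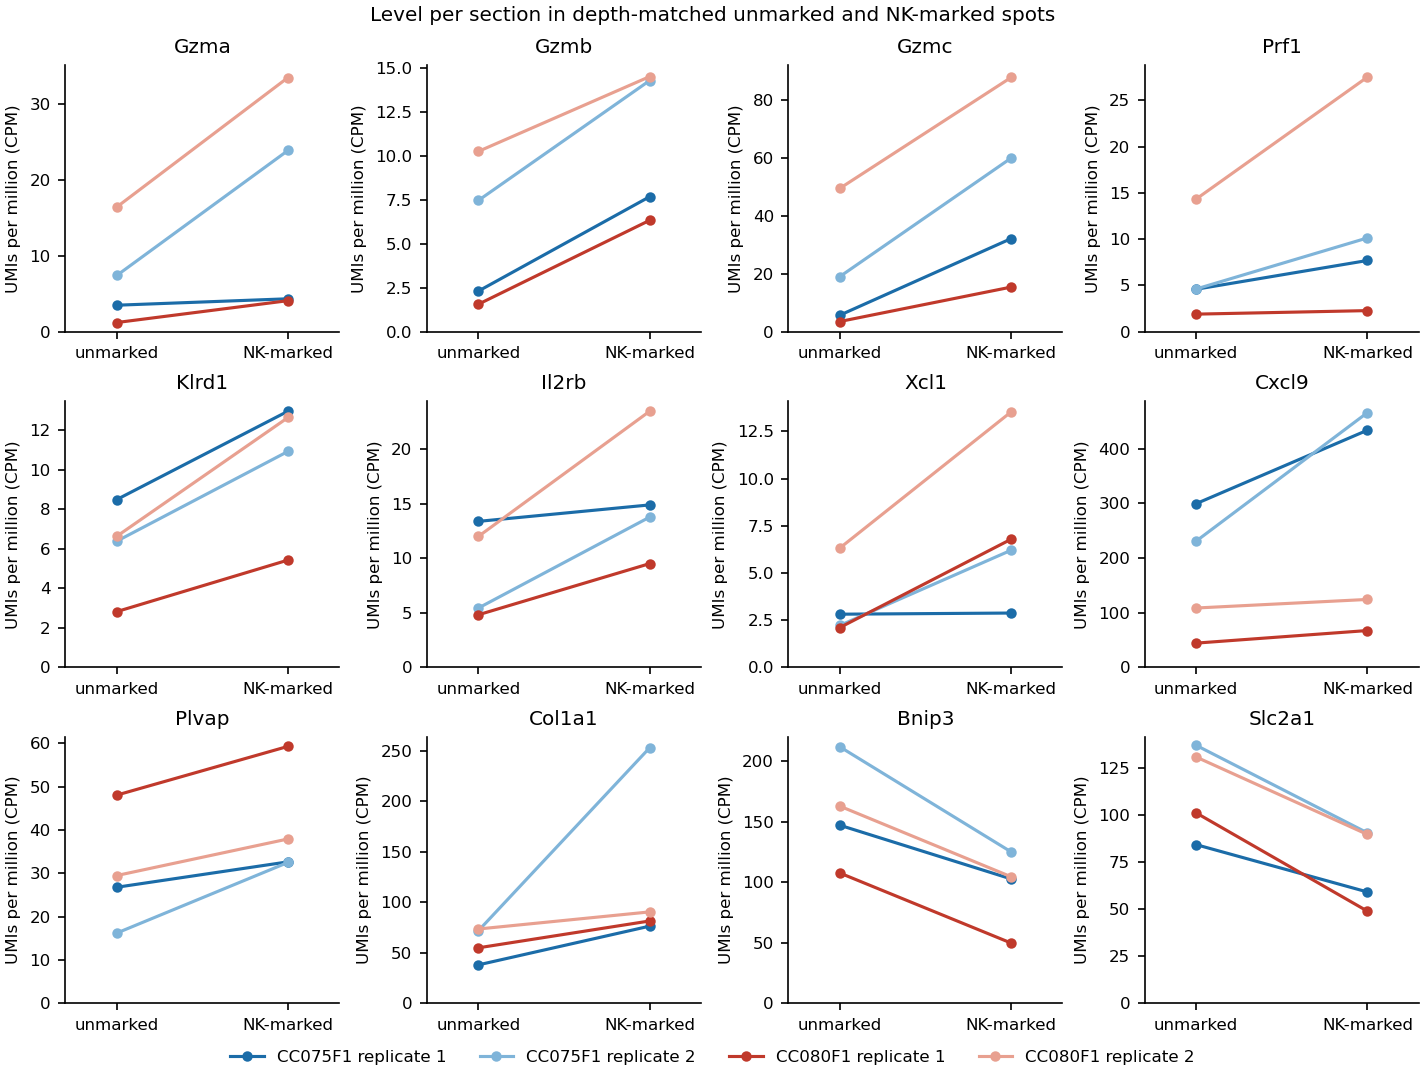
CPM of 12 genes in NK-marked spots and in depth-matched unmarked spots, with a line joining the classes of each section (vertical axes in CPM, scaled per gene). The lines of Gzmb, Gzmc and Cxcl9 rise in all 4 sections, those of Bnip3 and Slc2a1 fall in all 4, and Col1a1 climbs most in CC075F1 replicate 2.

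The granzymes C to G are a cluster of closely similar genes next to Gzmb on chromosome 14, and all 5 passed as higher in marked spots. Gzmc (56231441 to 56234656) had 32.2, 60.04, 15.4 and 88.0 CPM in marked spots and 5.67, 19.0, 3.48 and 49.6 CPM in unmarked spots, the classes apart in every section (log2 fold change 1.26 ± 0.14 SE, adjusted p = 3.94e-05). Gzmd rose by 1.15 ± 0.23 (adjusted p = 0.00855), Gzme by 1.01 ± 0.21 (adjusted p = 0.00888), Gzmf by 1.21 ± 0.26 (adjusted p = 0.0117) and Gzmg, which was not on the effector list, by 1.41 ± 0.29 (adjusted p = 0.0103). Gzme was at 0 UMIs in the marked spots of CC080F1 replicate 1 and at 13 in the unmarked spots. By the DESeq2 Wald test Gzmd, Gzme and Gzmf did not pass, and 5 of the 14 effector genes did. Single spots carried much of this in the CC075F1 sections. In CC075F1 replicate 1, 1 marked spot held 82.3% of the Gzmd UMIs of all marked spots, 94.1% of Gzme, 89.3% of Gzmf and 97.0% of Gzmg. In CC075F1 replicate 2 the top spot held 33.7%, 30.2%, 47.5% and 45.0% of them. With the top spot of each class removed, Gzmc still stood at 19.7, 46.1, 8.15 and 85.6 CPM against 5.40, 17.3, 3.32 and 48.6 CPM, above the unmarked spots in each section. Gzmf then stood at 5.28, 26.7, 1.36 and 82.3 CPM against 1.38, 19.4, 1.56 and 46.1 CPM, no longer higher in CC080F1 replicate 1. Because these paralogs share sequence, the split of UMIs among them is uncertain.

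Fewer effector genes passed among spots without T cell genes or among spots with CD45. When spots with Cd3d, Cd3e or Cd3g were left out of both classes, 3 of 13 effector genes tested were called, Gzma, Gzmc and Ctsw. Among spots with Ptprc in both classes, 5 of 13 were called, Gzma, Gzmc, Ctsw, Nkg7 and Prf1. The median log2 fold change of the effector list was 0.50 with Cd3 genes at 0 and 0.77 among Ptprc spots, beside 0.94 over all spots. The differences themselves were thus smaller, and both settings also leave fewer spots in each class.

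Lectin-like NK receptors, encoded in the NK gene complex of chromosome 6, were mostly rare. Of 21 listed, 14 were tested, 13 had a positive log2 fold change with a median of 0.51, and 2 rose. Klrd1 (CD94, the partner of the NKG2 receptors; 129591782 to 129598775) had 13.0, 10.9, 5.43 and 12.6 CPM in marked spots and 8.49, 6.39, 2.82 and 6.64 CPM in unmarked spots, higher in each section (0.75 ± 0.12 SE, adjusted p = 0.00121). It was found in 35.8%, 37.3%, 18.0% and 36.7% of marked spots and in 20.9%, 25.5%, 8.81% and 22.1% of unmarked spots. Klre1 had 2.88, 4.32, 1.36 and 4.44 CPM against 2.92, 1.75, 0.73 and 2.16 CPM (0.88 ± 0.23, adjusted p = 0.0454) and was called in 11 of 23 alternatives. Klrk1, which encodes the activating receptor NKG2D, had 10.1, 10.8, 3.62 and 6.99 CPM against 8.98, 5.99, 1.81 and 5.10 CPM, a difference that did not pass (0.50 ± 0.14, adjusted p = 0.0779). Klrg1 (1.03, adjusted p = 0.0914), Klra1 (1.19, adjusted p = 0.23), Klra7 (0.89, adjusted p = 0.164), Klrc1 (0.46, adjusted p = 0.656) and Klrb1b (0.08, adjusted p = 0.96) did not pass either. Klra4 was found at 73.0, 104, 81.5 and 90.7 CPM in marked spots and 62.0, 101, 67.2 and 89.8 CPM in unmarked spots, with no difference detected between classes (0.02 ± 0.06, adjusted p = 0.975).

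No gene passed on the lists of other NK receptors, adaptors and transcription factors. Of the 12 other NK receptors tested, all 12 had a positive log2 fold change (median 0.49) and none passed, among them Cd226 (DNAM-1; 1.10, adjusted p = 0.166), Cd7 (1.15, adjusted p = 0.169), Cd2 (0.89, adjusted p = 0.0918), Cd69 (0.51, adjusted p = 0.278) and Cd96 (0.54, adjusted p = 0.59). None of the 9 adaptors and Fc receptor genes passed (median 0.10). Tyrobp, which encodes the adaptor DAP12 and is abundant in myeloid cells, had 544, 832, 301 and 454 CPM in marked spots and 566, 652, 275 and 422 CPM in unmarked spots (0.07, adjusted p = 0.598). Sh2d1a, the adaptor SAP of NK and T cells, was at 1.34 ± 0.38 (adjusted p = 0.0752), and Fcgr3, the Fc receptor CD16, at 0.10 (adjusted p = 0.42). Of 11 transcription factors tested none passed and 10 were positive (median 0.12). Eomes, the T-box factor of mature NK cells, had 0.96, 1.75, 4.07 and 4.49 CPM against 1.31, 0.779, 1.33 and 2.18 CPM, lower in CC075F1 replicate 1 and higher in the other sections (0.98 ± 0.26, adjusted p = 0.0521). Tbx21 (T-bet; 0.25, adjusted p = 0.885), Id2 (0.12, adjusted p = 0.488) and Nfil3 (-0.36, adjusted p = 0.193) did not pass.

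Among cytokine and chemokine genes of NK cells, 1 of 8 tested rose. Xcl1, which attracts type 1 conventional dendritic cells, had 2.88, 6.21, 6.79 and 13.5 CPM in marked spots and 2.82, 2.22, 2.11 and 6.32 CPM in unmarked spots (1.11 ± 0.17 SE, adjusted p = 0.000759). It was level in CC075F1 replicate 1 and higher in the other sections. Ccl5, a chemokine of NK and T cells, at 439, 326, 401 and 693 CPM in marked and 411, 329.5, 315 and 606 CPM in unmarked spots, was not detectably different (0.08, adjusted p = 0.632). Ifng was higher in all 4 sections at 2.88, 2.83, 0.905 and 0.887 CPM against 1.96, 1.37, 0.48 and 0.709 CPM and did not pass (0.62, adjusted p = 0.386). Ltb stood at 0.66 (adjusted p = 0.0651).

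On the IL-15 and IL-2 axis, the shared receptor chains rose and the ligand did not. Il2rb, the beta chain through which NK cells receive IL-15, had 14.9, 13.8, 9.51 and 23.5 CPM in marked spots and 13.4, 5.44, 4.82 and 12.0 CPM in unmarked spots (0.87 ± 0.12 SE, adjusted p = 0.000305). The gap was small in CC075F1 replicate 1 and wide in the other 3 sections. Il2rg, the common gamma chain, had 30.2, 34.0, 19.9 and 23.2 CPM against 25.2, 21.6, 14.8 and 18.8 CPM (0.35 ± 0.07, adjusted p = 0.00953), a call lost without CC075F1 replicate 2, with Cd3 genes at 0 and by DESeq2. Il15 (0.03, adjusted p = 0.97) and Il15ra (0.01, adjusted p = 1) showed no detectable difference, and the other members of the 11 tested did not pass (median of the list 0.17). None of 8 genes of the IL-12 and IL-18 axis passed, Il18r1 being at 0.88 (adjusted p = 0.359) and Il12rb1 at 0.13 (adjusted p = 0.792), with a list median of 0.12.

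Of the ligands that draw lymphocytes into tissue, 3 of 7 tested rose, and all 7 were positive (median 0.37). Cxcl9, a CXCR3 ligand induced by interferon-γ, had 434, 466, 67.4 and 124 CPM in marked spots and 299, 231, 44.5 and 109 CPM in unmarked spots, higher in each section although the sections themselves differed more than the classes (0.52 ± 0.07 SE, adjusted p = 0.000412). Cxcl10, a further CXCR3 ligand, rose by 0.37 ± 0.05 (adjusted p = 0.000195), and Ccl8, a monocyte attractant, by 0.54 ± 0.12 (adjusted p = 0.0116). Ccl8 was no longer called without CC075F1 replicate 2 (0.16) or without CC080F1 replicate 1 (0.52). Of 9 homing receptors tested, Itga1, the collagen-binding integrin CD49a of tissue-resident lymphocytes, rose by 0.57 ± 0.15 (adjusted p = 0.046), a call lost on leaving out any section but CC080F1 replicate 1. Ccr2, a receptor for monocyte chemokines, did not pass (0.20, adjusted p = 0.34). Of 15 tested genes for ligands that NK receptors read on a target cell, 1 rose, the adhesion molecule Icam1 (0.35 ± 0.09, adjusted p = 0.045), a call lost on leaving out any section but CC080F1 replicate 2, and the list had a median of -0.02. Ulbp1 (a ligand of NKG2D; -0.04, adjusted p = 0.913), Pvr (a ligand of DNAM-1; -0.29, adjusted p = 0.148) and the class I genes H2-K1 (-0.04, adjusted p = 0.81) and B2m (-0.05, adjusted p = 0.781) did not pass.

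**Figure D3:**
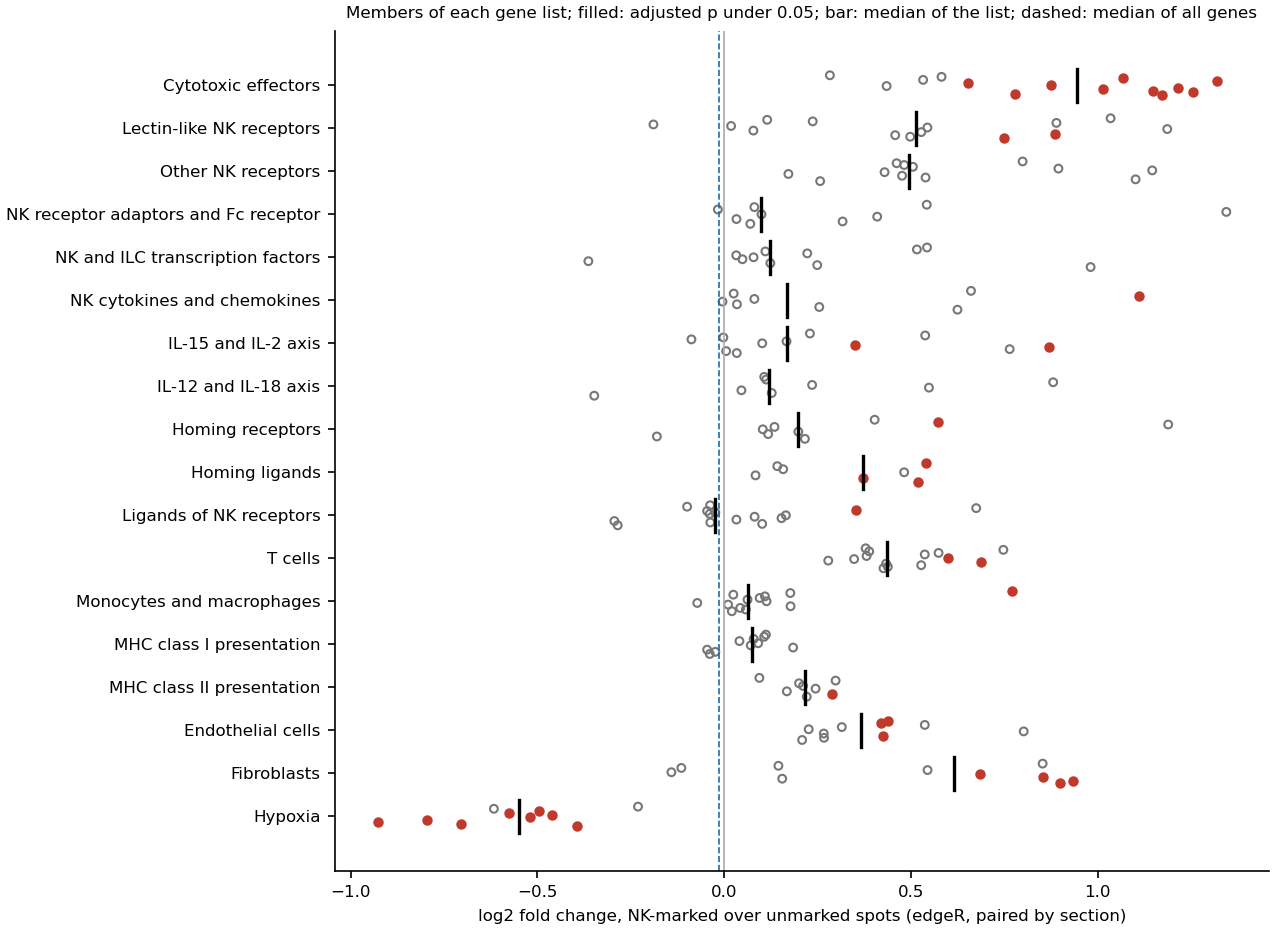
Log2 fold change of NK-marked over unmarked spots for every tested gene of 18 gene lists, with filled points for genes past the edgeR threshold, a bar for each list's median and a dashed line for the median of all genes at -0.01. Among these 18 lists the effector genes have the largest median, 0.94, and the hypoxia genes lie left of the line with a median of -0.55.

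Among genes of other immune cells few passed. All 14 T cell genes tested were positive (median 0.44) and 2 passed. Trbc1, a T cell receptor constant gene, had 6.72, 15.1, 3.62 and 13.1 CPM in marked spots and 6.98, 8.25, 2.02 and 7.09 CPM in unmarked spots (0.69 ± 0.13 SE, adjusted p = 0.00488). Thy1, carried by T cells, NK cells and fibroblasts, rose by 0.60 ± 0.11 (adjusted p = 0.00295), and Cd3d stood at 0.43 (adjusted p = 0.113). Leaving out CC080F1 replicate 2 ended the call of Trbc1. None of the genes tested for γδ T cells (3), regulatory T cells (6), other innate lymphoid cells (4), B and plasma cells (3), neutrophils (7), mature dendritic cells (7) or type 1 dendritic cells (7) passed, with list medians between -0.02 and 0.51. Of 13 monocyte and macrophage genes 1 passed, Ly6c2 (0.77 ± 0.16, adjusted p = 0.00851), which fell to 0.33 and was not called without CC075F1 replicate 2, and the list median was 0.06. Both mast cell genes tested rose, the proteases Cma1 (1.90 ± 0.40, adjusted p = 0.0104) and Cpa3 (2.15 ± 0.47, adjusted p = 0.0135). They were at most 4.99 CPM in any class, and neither was called without CC075F1 replicate 2.

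Few genes of the interferon-γ response and of antigen presentation passed. Of 16 interferon-γ response genes tested 3 rose, 14 were positive and the median was 0.25. Cxcl9 and Nkg7, described above, were among the 3. MHC class I genes had a median of 0.08 with none of 10 called, and MHC class II genes a median of 0.22 with H2-Ab1 called among 8 (0.29, adjusted p = 0.0328), a call lost without either replicate 1 section. Cell cycle genes did not differ as a list, with 0 of 10 called and a median of 0.02.

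The marked spots held less RNA of hypoxia genes. Of 10 such genes 8 fell, none was positive, and the median was -0.55. Their sum was 476, 456, 386 and 507 CPM in marked spots and 609.7, 688, 591 and 695 CPM in unmarked spots, lower in each section. Bnip3, a mitochondrial protein gene induced by the factor HIF-1, had 103, 125, 49.8 and 105 CPM in marked spots and 147, 212, 108 and 163 CPM in unmarked spots (-0.80 ± 0.06 SE, adjusted p = 2.5e-07). Slc2a1, the glucose transporter GLUT1, had 59.1, 90.4, 48.9 and 89.6 CPM against 84.1, 137, 101 and 131 CPM (-0.71 ± 0.06, adjusted p = 8.03e-07). In both genes all 4 sections moved down, CC080F1 replicate 1 farthest. Car9, the carbonic anhydrase of hypoxic tumor cells, was at -0.93 ± 0.17 (adjusted p = 0.00343) and Vegfa, the angiogenic factor, at -0.39 ± 0.05 (adjusted p = 0.000282). Ndrg1 (-0.52), Egln3 (-0.46), Ankrd37 (-0.58) and Pdk1 (-0.50) fell as well. Adm (-0.62, adjusted p = 0.337) and P4ha1 (-0.23, adjusted p = 0.0543) did not pass.

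The 10 genes with the largest decreases that moved down in all 4 sections included Bnip3, Slc2a1 and Car9. Of the other 7, Ero1l, an oxidase of protein folding in the endoplasmic reticulum, had 95.5, 99.4, 67.0 and 109 CPM in marked spots and 124, 165, 109 and 179.6 CPM in unmarked spots (-0.74 ± 0.06 SE, adjusted p = 2.5e-07). The heat shock genes Hspa1a (-0.95, adjusted p = 0.000551) and Hspa1b (-0.82, adjusted p = 0.000148) fell too, as did Adm2, an adrenomedullin-like peptide gene (-0.77, adjusted p = 0.00629), Angptl6 (-0.90, adjusted p = 0.0008), Cox6a2, a cytochrome oxidase subunit gene (-0.70, adjusted p = 4.17e-06), and Cdsn, a gene of skin cell adhesion (-1.13, adjusted p = 0.000786).

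Hypoxia level moved with the NK mark and with other genes as well. When unmarked spots were drawn to match the marked ones on hypoxia RNA in addition to depth, an alternative chosen after seeing the data, 78 genes were higher and 5 lower, and none of the 10 hypoxia genes was called, as this matching sets their level. This setting used 5 depth strata in place of 10, with 4 hypoxia strata in each. Of the effector genes, 9 of 13 tested were still called, with a list median of 0.84. The median of the lectin-like NK receptors was 0.30, beside 0.51 with depth matching alone. Endothelial genes were not called in that setting, and their median was 0.14, beside 0.37 with depth matching alone.

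**Figure D4:**
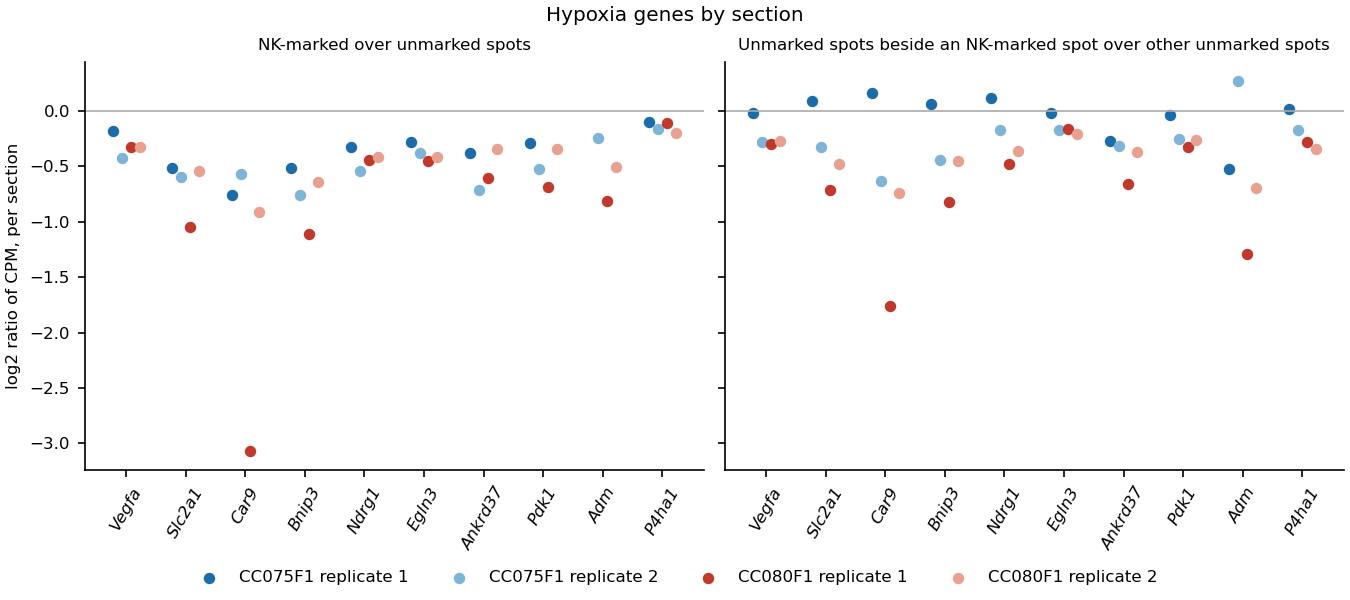
Log2 ratio of 10 hypoxia genes in each section, on the left for NK-marked over unmarked spots and on the right for unmarked spots beside a marked spot over the other unmarked spots, with a line at 0. On the left Bnip3 and Slc2a1 lie below 0 in all 4 sections, on the right in 3 of 4; the -3.07 of Car9 in CC080F1 replicate 1 rests on 1 UMI, and Adm has no point on the left in CC075F1 replicate 1, where it had 0 UMIs.

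Some vessel and matrix genes rose in marked spots. Of 10 endothelial genes 3 were called and all 10 were positive (median 0.37). Plvap, a protein of fenestrated endothelium, had 32.6, 32.5, 59.3 and 37.9 CPM in marked spots and 26.8, 16.2, 48.1 and 29.5 CPM in unmarked spots (0.44 ± 0.08 SE, adjusted p = 0.00391). Kdr, the main VEGF receptor, rose by 0.42 ± 0.10 (adjusted p = 0.0186) and Esam, an adhesion molecule, by 0.42 ± 0.10 (adjusted p = 0.0328). The calls of Kdr and Esam were lost without CC075F1 replicate 2 or CC080F1 replicate 1, and none of the 3 was called among interior spots. Of 10 fibroblast genes 4 were called and 8 positive (median 0.62). With no filter on low counts 5 were called higher and 1 lower. Summed over the list, fibroblast RNA stood at 1970, 1634.6, 3008.2 and 2756.2 CPM in marked spots and 1966.2, 905.41, 2858.6 and 2500.8 CPM in unmarked spots. That gap was widest in CC075F1 replicate 2. Col1a1, a chain of collagen I, had 76.3, 253, 81.5 and 90.4 CPM in marked spots and 38.03, 71.7, 54.9 and 73.5 CPM in unmarked spots (0.90 ± 0.15, adjusted p = 0.00132). CC075F1 replicate 2 stood far above the others, and without it the log2 fold change was 0.41, still called. Without that section Col1a2 stood at 0.47, Bgn, the proteoglycan biglycan, at 0.31 and Postn, the matrix protein periostin, at 0.33, all still called, and the list median was 0.21. None of the 10 fibroblast genes was called by the DESeq2 Wald test. Among interior spots Col1a1, Col1a2, Bgn and Postn were still called, and the list median was 0.28.

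Several matrix genes among the largest increases rested on that same section. Without CC075F1 replicate 2, Ccn3, a matricellular protein gene, dropped from 1.82 ± 0.32 (adjusted p = 0.00302) to 0.75, Cpxm2 from 1.77 to 1.01, C1qtnf3 from 1.22 to 0.62 and Sod3, the extracellular superoxide dismutase, from 1.21 to 0.53, and none of these 4 was then called. Eln, which encodes elastin, had 1.44, 13.8, 12.2 and 2.77 CPM in marked spots and 0.825, 4.32, 2.25 and 1.73 CPM in unmarked spots (1.42 ± 0.22, adjusted p = 0.000963) and stayed past the threshold without any single section, although 1 spot held 18 of its 27 UMIs in CC080F1 replicate 1, where 4.07 against 2.17 CPM remained without the top spot of each class. Past the threshold without any single section were also Mfap2, a microfibril gene (1.32 ± 0.26, adjusted p = 0.00728), and Tagln, of contractile cells (1.43 ± 0.25, adjusted p = 0.00243). The call of Mfap2 was lost among interior spots, without depth matching and with Klrb1c alone as the mark. Eln lost its call without depth matching and Tagln with Cd3 genes at 0. Ccl1, a chemokine gene that was also among the largest increases (1.55 ± 0.28, adjusted p = 0.00361), had 9.60, 1.35, 2.26 and 2.99 CPM against 2.03, 0.57, 0.442 and 1.33 CPM, and 1 spot held 16 of its 20 UMIs in CC075F1 replicate 1, without which it was no longer called.

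Skeletal muscle genes were called through CC075F1 replicate 2. All 6 tested passed (median 1.39), none of the 3 that could be tested without that section did, and their sum was 4.32, 415, 8.60 and 4.82 CPM in marked spots against 5.05, 106, 14.3 and 3.20 CPM in unmarked spots. The level in CC075F1 replicate 2 was many times that of the other sections in both classes. With spots of muscle, skin or fat left out in all sections, 2 of 6 muscle genes were called, while Col1a1 (0.93) and Plvap (0.42) kept their values and 251 of the 267 genes called over all spots were called again. The part of overlying muscle in the matrix results was not tested beyond this.

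Compared with Cd8a-marked spots, NK-marked spots were set apart by a few granzymes. Equal numbers of both classes were drawn within depth strata, 67, 142, 61 and 97 spots of each, so 314 marked spots of CC080F1 replicate 2 were not used. Of 10606 genes tested, 8 (0.0754%) were higher and none lower, with 448 genes at an unadjusted p under 0.05. Among them, 4 were higher in each of the 4 sections. Gzmd had 29.8, 41.7, 4.53 and 44.4 CPM in NK-marked spots and 3.37, 10.96, 0.927 and 24.9 CPM in Cd8a-marked spots (log2 fold change 1.58 ± 0.17 SE, adjusted p = 6.03e-06), with the single-spot share in CC075F1 replicate 1 given above. Gzmc had 32.2, 60.04, 15.4 and 72.3 CPM against 13.0, 25.3, 4.63 and 42.9 CPM (1.07 ± 0.10, adjusted p = 8.97e-07). Both genes were thus above the Cd8a-marked spots in every section. By the DESeq2 Wald test only 1 gene passed in this comparison, Gzmc.

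Gzma had 4.32, 23.9, 4.07 and 29.0 CPM in NK-marked spots and 2.41, 13.0, 2.32 and 14.6 CPM in Cd8a-marked spots (0.89 ± 0.14 SE, adjusted p = 0.0017). Lum, the collagen-binding proteoglycan lumican, had 7.68, 21.5, 6.79 and 26.8 CPM against 2.89, 11.2, 3.24 and 20.3 CPM (0.74 ± 0.15, adjusted p = 0.045), a call lost on leaving out any section but CC080F1 replicate 2. The remaining 4 called genes, Gzmg, Des, Cryab and Gpx3, were not higher in all sections. With Cd3 genes also at 0 in the NK-marked spots, which left 28, 54, 47 and 97 spots of each class, Gzma kept a log2 fold change of 0.87 but was no longer called (adjusted p = 0.077). Without either replicate 2 section its counts were too low to be tested.

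Other lymphocyte genes did not separate these classes at this depth. Gzmb (0.11 ± 0.19 SE), Prf1 (0.28 ± 0.18), Klrd1 (0.14 ± 0.17), Klrk1 (-0.03), Il2rb (0.12) and Xcl1 (0.25) did not pass. Nkg7 was lower in NK-marked spots of each section, at 17.3, 28.1, 5.43 and 9.49 CPM against 27.9, 35.5, 9.27 and 14.3 CPM, without passing (-0.49 ± 0.12, adjusted p = 0.196). The T cell receptor genes Trbc2 (-0.63) and Cd3g (-0.43) did not pass either, and the 9 T cell genes tested had a median of -0.24. Bnip3 (0.02 ± 0.08) and Slc2a1 (0.00 ± 0.09) were at the same level in both classes to within these errors. Because the NK-marked spots enter both comparisons, the values over unmarked and over Cd8a-marked spots are given side by side only.

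**Figure D5:**
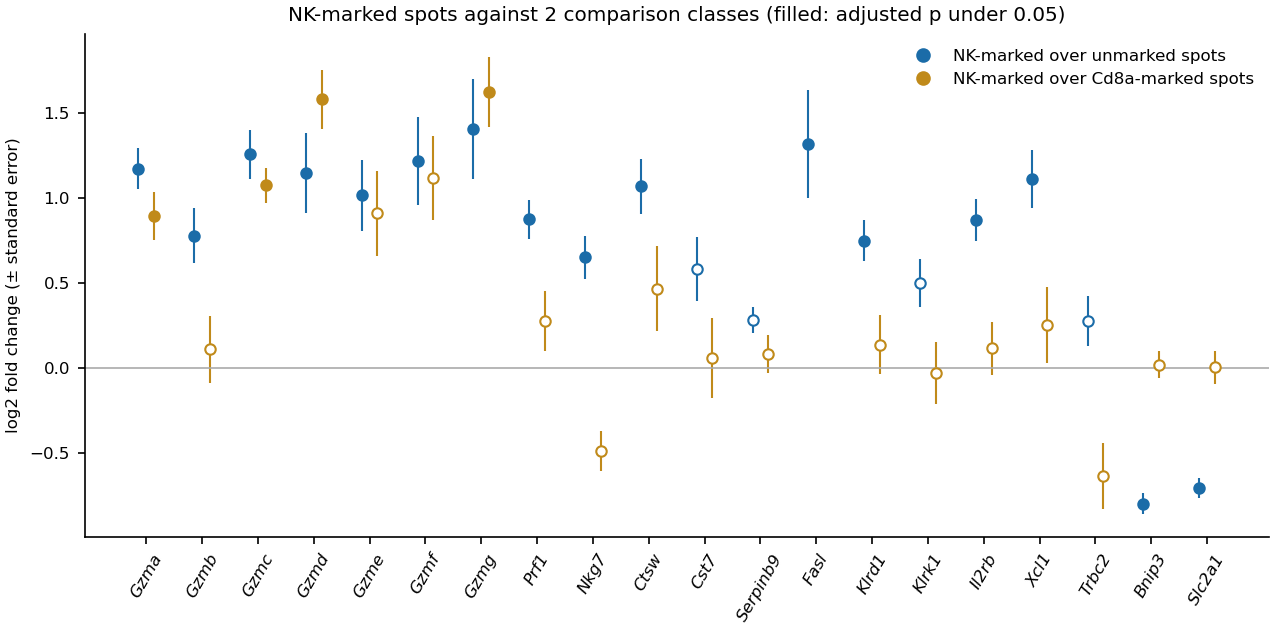
Log2 fold change with its SE for 20 genes, over unmarked spots and over Cd8a-marked spots, with a line at 0. Gzmc (1.26 and 1.07), Gzmd (1.15 and 1.58) and Gzma (1.17 and 0.89) lie above 0 in both, whereas Prf1 (0.87 and 0.28), Klrd1 (0.75 and 0.14) and Il2rb (0.87 and 0.12) lie closer to 0 over Cd8a-marked spots; Fasl was tested in the first comparison alone.

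Spots marked by Ncr1 alone and by Klrb1c alone were then compared with each other, a comparison added after seeing the data, with 24, 54, 26 and 156 spots of each. Of 9967 genes tested none was higher in the Ncr1 spots and 8 (0.0803%) were lower by edgeR, with 473 at an unadjusted p under 0.05. Granzymes made up 4 of the 8. Gzmf had 8.18, 9.72, 2.17 and 78.6 CPM in the Ncr1 spots and 1.32, 86.6, 1.06 and 115 CPM in the Klrb1c spots (-0.99, adjusted p = 7.08e-05). The direction came from the replicate 2 sections and was opposite in the replicate 1 sections. Gzmg was at -1.09 (adjusted p = 1.1e-06), Gzmd at -0.69 (adjusted p = 7.08e-05) and Gzme at -0.75 (adjusted p = 0.0133), and none of these was called without either replicate 2 section. Gzma (0.08), Gzmc (0.25), Prf1 (-0.12) and Klrd1 (0.09) did not pass between the spots of either marker.

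Unmarked spots touching an NK-marked spot were compared with unmarked spots touching none, likewise added after seeing the data, with 242, 450, 277 and 1008 spots of each. Of 12827 genes tested, 12 (0.0936%) were higher and 50 (0.39%) lower in the adjoining spots. Hypoxia genes again fell, 7 of 10, with a list median of -0.36 beside -0.00 for all genes. Hmox1, the stress-induced heme oxygenase, had 26.6, 62.8, 27.4 and 61.0 CPM in adjoining spots and 32.5, 80.7, 35.2 and 88.3 CPM in the others, lower in each section (-0.47 ± 0.04 SE, adjusted p = 5.61e-05). Bnip3 had 128, 159.6, 66.0 and 129.8 CPM against 122, 217, 117 and 177 CPM (-0.46 ± 0.07, adjusted p = 0.00803), lower in 3 sections and not in CC075F1 replicate 1. Slc2a1 followed the same pattern (-0.44 ± 0.07, adjusted p = 0.00768). These genes were chosen after their values were seen.

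Effector genes did not pass in the adjoining spots, with 0 of 13 called, 12 positive and a median of 0.20. Gzma stood at 0.24 ± 0.10 (adjusted p = 0.447). Il2rb rose by 0.41 (adjusted p = 0.0376), at 17.5, 7.70, 5.79 and 14.8 CPM against 11.2, 5.39, 4.16 and 11.6 CPM. It was higher in the adjoining spots of each section. Igkc, an immunoglobulin constant gene, had the largest increase (2.87, adjusted p = 5.61e-05), which lay in CC075F1 replicate 2, at 78.4 against 8.02 CPM. Of 5 skeletal muscle genes tested, Acta1, Ckm, Mylpf and Tnnc2 were also higher (median of the list 1.91), and in that section Acta1 had 148 CPM in adjoining spots against 17.6 CPM in the others. These unmarked spots are also in the first comparison, so the results are not independent. Without CC080F1 replicate 1 the count of calls fell from 62 to 17, and without CC080F1 replicate 2 it was 154.

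Whether the contents of marked spots differed by host was tested as the difference of the NK contrast between CC075F1 and CC080F1. Of 13375 genes, 17 (0.127%) had a larger log2 fold change in CC075F1 and none in CC080F1, with 762 at an unadjusted p under 0.05 in edgeR. Of the 17, 8 were higher in the marked spots of all 4 sections, most of them genes of the extracellular matrix. Col1a1, with the section values above, differed by 1.14 (adjusted p = 0.00167), Col1a2 by 1.07 (adjusted p = 0.00167) and Postn by 0.97 (adjusted p = 0.00226). The increase of all 3 was widest in CC075F1 replicate 2. None of the 8 named genes was called without CC075F1 replicate 2 or without CC080F1 replicate 2, and leaving out single sections gave 389, 4, 39 and 1 calls. Of the 389 without CC075F1 replicate 1, 169 were higher and 220 lower, so the direction of the calls was not 1-sided there. No effector gene, NK receptor or hypoxia gene was among the 17.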

How the data were processed

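Spot transcriptomes of 4 sections were analysed from the deposited matrices of raw UMI counts per gene (32285 genes) and spot under tissue, which the authors made with Space Ranger 1.3.1 on GRCm38 (mm10) without normalization. Seurat 5.0.1 is also named in the submitters' processing notes. Totals per section were 82594649 to 146460975 UMIs, and exact binomial intervals at 95% cover counting error only. Gene positions used GENCODE vM21, an earlier release on the same build.

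Unmarked spots were drawn without replacement to the depth of marked spots in 10 quantile strata per section. UMIs were summed per class and section without Ncr1, Klrb1c and Cd8a, filtered with filterByExpr, scaled by TMM and fitted by quasi-likelihood in edgeR 4.0.16 (R 4.3.3, limma 3.58.1) with the section as a block, which pairs the classes since both come from 1 tumor. DESeq2 1.42.0 was an alternative. The pipeline was tested on simulated data. Named genes were those called with 1 sign in all 4 sections and at least 2 CPM (15 higher and 10 lower, and up to 8 each way in the other comparisons), and the members of the NK lists. Of the listed genes, 1 was absent from the tables. Spot classes and all 36 gene lists were chosen with earlier results of these data known. Spots of 1 section are not replicates, so sections were compared. No section of an anti-PD-1 treated tumor was analysed here. Values of some list members are not reported here.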

Additional observations from a re-analysis of the deposited data

Results flagged for a closer look

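A difference of the NK contrast between hosts, tested as an interaction of spot class and strain in edgeR, put 17 genes past the threshold, all with the larger log2 fold change in CC075F1. Of these, 8 were higher in the marked spots of all 4 sections. The differences, CC075F1 minus CC080F1 on the log2 scale, were 1.89 for Lrg1, 1.59 for Mfap4, 1.37 for Gpx3, 1.25 for Col12a1, 1.14 for Col1a1, 1.07 for Col1a2, 0.99 for Plac8 and 0.97 for Postn. None of these 8 was called without CC075F1 replicate 2 or without CC080F1 replicate 2. Without CC075F1 replicate 1, 169 genes were higher and 220 lower.

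CC075F1 replicate 2 held the widest gap in absolute level for each of the 5 not described above. Lrg1, a secreted glycoprotein gene, had 7.15 CPM in its marked and 1.62 CPM in its unmarked spots, Mfap4, a microfibril gene, 24.6 and 6.12 CPM, Gpx3, an extracellular glutathione peroxidase, 72.2 and 18.3 CPM, Col12a1, a collagen, 24.6 and 7.70 CPM, and Plac8 48.8 and 17.4 CPM. In CC080F1 replicate 2 the same genes had 3.44 and 3.20, 12.1 and 11.6, 16.4 and 14.1, 6.49 and 5.50, and 43.5 and 36.2 CPM. The section CC075F1 replicate 2 also held 72 of the 77 spots with muscle, skin or fat markers. With such spots left out, 15 genes were higher and 2 lower, and Col1a1 (1.33), Col1a2 (1.33) and Postn (1.00) kept their direction.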

How the results depend on the processing

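For the comparison with unmarked spots, the 267 calls became 168 with Cd3 genes at 0, 164 among Ptprc spots, 83 with matching on hypoxia genes (added after seeing the data), 539 with no filter on low counts, 124 by the DESeq2 Wald test and 0 with no replicate block (198 at an unadjusted p under 0.05). Leaving out single sections gave 182 to 333. For the comparison with Cd8a-marked spots, the 8 calls became 45 with no filter, 1 by DESeq2, 18 with a second draw, 20 with no depth matching, 17 with Cd3 genes at 0, 0 with no replicate block (54 at an unadjusted p under 0.05) and 5 to 48 without single sections. The 17 calls of the strain difference became 34 with DESeq2 size factors, 59 with library size alone, 65 with no filter, 52 with a second draw, 61 with the replicate number as a further block and 1 to 389 without single sections. The comparisons added later gave 3 to 14 calls (Ncr1 against Klrb1c) and 17 to 154 (adjoining spots) without single sections. The strain ratio of marked shares was 0.643 to 3.8 without single sections, and the edge difference of -0.98 points without depth matching turned direction. Of single genes, Ankrd37 (0.042 with hypoxia matching) and Tnnt3 (-0.60 among interior spots, -0.49 to 1.32 without single sections, negative without CC075F1 replicate 2) reversed. Of the values of 66 genes under the alternatives, 1194 kept call and direction, 286 lost the call and 3 reversed. Beyond the construction of these settings, the causes were not tested. Gzma, Gzmc, Ctsw, Klrd1, Xcl1, Il2rb, Cxcl9 and Cxcl10 lost their call without the block.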

Other observations

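Lists outside NK biology that the comparison of NK-marked with unmarked spots also covered gave few calls. Of 6 exhaustion genes tested, Entpd1, the ectonucleotidase CD39, rose by 0.33 (adjusted p = 0.0373), and the list median was 0.33. Entpd1 was called in 10 of 23 alternatives, and its call was lost on leaving out any section but CC080F1 replicate 1. None of the genes tested passed for type 2 dendritic cells (5 tested, median 0.05), plasmacytoid dendritic cells (2, median 0.02), tumor epithelium (2, median 0.13), keratinocytes (2, median -0.20) or erythrocytes (4, median 0.01). Of 3 adipocyte genes 1 passed, Car3 (1.41, adjusted p = 0.0047), which is also expressed in skeletal muscle and was not called without CC075F1 replicate 2.

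Among pericyte and vessel genes outside the endothelial list, chosen after their values were seen, Rgs5 had 20.6, 20.8, 90.5 and 37.3 CPM in marked spots and 11.9, 9.30, 54.0 and 28.1 CPM in unmarked spots (0.63 ± 0.09 SE, edgeR adjusted p = 0.000223). Igfbp7 rose by 0.50 ± 0.06 (adjusted p = 0.000114). In both CC080F1 sections Rgs5 was higher than in the same class of either CC075F1 section.

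Cd8a itself was found in 36.8%, 30.0%, 6.15% and 3.97% of all spots with an NK gene and in 29.7%, 22.8%, 7.53% and 3.53% of spots without one, higher in 3 of 4 sections. These spots were not matched for depth.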
